A study of Mus musculus with 8 samples.

Results

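PB3-ERI-R is the derivative of the mouse breast cancer line PB3 that was selected with eribulin, a drug that binds the ends of microtubules. Its open chromatin was described from 2 of the 8 ATAC-seq libraries of the series, replicates 1 and 2 of that line, and from the peak list deposited for it, and no other line was set beside it. In ATAC-seq a transposase cuts and tags DNA that is not covered by nucleosomes, so that counts gather at open promoters and enhancers. The labels give the cells as breast cancer cells of the type Er-/Pr-/Her2-, spell the drug Erubilin and name concentrations of 300, 500 and 800 nM for making resistant clones. They do not tie a concentration or a clone number to a library. Nothing in the labels says that the 2 libraries came from separate cultures, so the difference between them may be technical.

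The peak list held 30778 peaks, which lay in 30062 of the 57417 consensus regions of the count table. Summed over the consensus regions the libraries held 13419873 and 10521964 counts, of which 90.2% and 89.4% fell in the regions with a PB3-ERI-R peak. The counts cover these regions only, so these are not shares of all that was sequenced. Values below are CPM per kb, counts scaled to the library's total over all consensus regions and divided by region width. The others are the fold enrichment that the authors gave at a peak's strongest summit. In regions with a peak the median density was 41.1 CPM per kb in replicate 1 and 41.0 in replicate 2, against 4.66 and 5.75 in the regions without one. Regions with a peak differed between the libraries by a median of 0.19 on the log2 scale, and 95% of them by less than 0.59, which is 1.5-fold. Counts over 57392 regions differed by more than counting error, with a chi-square per degree of freedom of 4.6.

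Epithelial cells hold together through cadherin, claudin and desmosome proteins and carry simple keratins, and factors such as Grhl2, Ovol1 and the splicing factors Esrp1 and Esrp2 keep that state. In epithelial-mesenchymal transition (EMT) the repressors Snai1, Snai2, Zeb1 and Zeb2 bind the E-box CAGGTG in epithelial promoters, and matrix and vimentin genes are switched on. The miR-200 family and miR-205 act the other way, by silencing Zeb1 and Zeb2. In the mammary gland luminal cells express Krt8, Krt18, Gata3 and Elf5, and basal cells express Krt5, Krt14 and Trp63.

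The sequences of the epithelial miRNAs are shown because a peak lay within 10 kb of each of their hairpins. The capitals mark the seed, bases 2 to 8, which pairs with targets. Sequences are those of RefSeq for GRCm38.p6, and of 36 miRNAs listed 28 were found by symbol. Not found were Mir122, Mir124a-1, Mir124a-2, Mir124a-3, Mir133a-1, Mir143, Mir145a and Mir1a-2, none of them among the epithelial miRNAs shown. All of those not found belonged to the comparison groups. The groups counted below held 10 epithelial, 7 mesenchymal and 10 other hairpins. Together these are fewer than the 28 found, and what was left out is not given here. In the miR-200 family miR-200b, miR-200c and miR-429 share the seed AAUACUG, and miR-200a and miR-141 share AACACUG.
miR-200b-3p: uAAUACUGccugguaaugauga
miR-200c-3p: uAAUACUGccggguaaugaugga
miR-429-3p: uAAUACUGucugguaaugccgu
miR-200a-3p: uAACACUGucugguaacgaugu
miR-141-3p: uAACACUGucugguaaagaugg
miR-205-5p: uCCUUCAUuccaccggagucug
miR-203-3p: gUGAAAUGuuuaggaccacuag
miR-183-5p: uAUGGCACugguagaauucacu
miR-96-5p: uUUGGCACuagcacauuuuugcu
miR-182-5p: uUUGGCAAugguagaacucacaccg

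A peak overlapped the hairpin of Mir200c and lay 54 bp from that of Mir141, with 651 and 401 counts, or 36.3 and 28.5 CPM per kb, in its region. The hairpins of Mir200b, Mir200a and Mir429 shared a nearest peak at 3.58 to 5.34 kb, whose region held 80.3 and 66.2 CPM per kb. Mir205 had its nearest peak at 2.43 kb, in a region of 109 and 87.8 CPM per kb, and Mir203 had it at 16 bp, with 63.0 and 58.6. These regions were above the median of the line in both libraries, apart from that of Mir200c and Mir141, which was below it.

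Mir183, Mir96 and Mir182, a cluster known from sensory epithelia, lay 3.74 to 7.49 kb from a peak in a region of 65.2 and 63.7 CPM per kb. All 10 epithelial hairpins, at 5 loci, thus had a peak within 10 kb, against 450 of 1005 hairpins in the reference table, or 44.8%. Among 7 miRNAs placed in a mesenchymal group for this count it was 2, Mir22 at 1.95 kb and Mir21a at 2.59 kb. Where these 7 are expressed was not examined. Mir199a-1, Mir199a-2, Mir214, Mir31 and Mir10b had their nearest peaks at 13.3 to 99.6 kb. Closeness to a peak was not limited to the epithelial group, since 8 of 10 miRNAs of other lineages also had one within 10 kb, among them the muscle miRNA Mir206, whose hairpin a peak overlapped.

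The promoters shown next are those of 6 epithelial genes whose starts were open and of Vim, whose start was not. Each runs from 250 bases before to 50 after the start of RefSeq (GRCm38.p6), 5′ to 3′ on the strand of the gene. Capitals mark CAGGTG, or CACCTG where it lies on the other strand, and the motifs of AP-1 (TGACTCA), CRE (TGACGTCA) and Grainyhead (AACCNGTT).
Epcam, chr17:87635729-87636028, plus strand: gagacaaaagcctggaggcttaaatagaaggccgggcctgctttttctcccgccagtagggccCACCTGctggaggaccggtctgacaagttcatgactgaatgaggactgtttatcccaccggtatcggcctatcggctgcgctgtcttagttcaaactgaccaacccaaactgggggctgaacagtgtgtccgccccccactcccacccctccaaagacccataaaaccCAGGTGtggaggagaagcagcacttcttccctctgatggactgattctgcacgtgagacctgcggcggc
Krt8, chr15:102004293-102004592, minus strand: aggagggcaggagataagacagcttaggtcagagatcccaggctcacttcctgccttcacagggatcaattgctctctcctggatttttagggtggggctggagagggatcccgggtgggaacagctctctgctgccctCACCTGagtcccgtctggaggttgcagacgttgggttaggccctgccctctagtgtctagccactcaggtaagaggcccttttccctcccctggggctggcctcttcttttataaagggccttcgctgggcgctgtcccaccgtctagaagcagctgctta
Rab25, chr3:88548230-88548529, minus strand: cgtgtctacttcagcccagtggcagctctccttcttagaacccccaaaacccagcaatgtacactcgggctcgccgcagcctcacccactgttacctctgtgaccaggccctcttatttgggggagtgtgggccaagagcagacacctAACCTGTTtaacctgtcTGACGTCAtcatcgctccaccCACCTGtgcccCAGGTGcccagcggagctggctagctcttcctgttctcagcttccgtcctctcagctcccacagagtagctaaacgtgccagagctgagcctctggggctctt
Cldn4, chr5:134946885-134947184, minus strand: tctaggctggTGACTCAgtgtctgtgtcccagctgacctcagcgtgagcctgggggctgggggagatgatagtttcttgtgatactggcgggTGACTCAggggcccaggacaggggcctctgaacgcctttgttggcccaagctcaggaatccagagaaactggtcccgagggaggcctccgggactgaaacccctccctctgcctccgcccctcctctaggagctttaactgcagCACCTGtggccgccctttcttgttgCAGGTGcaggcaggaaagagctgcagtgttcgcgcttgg
F11r, chr1:171437311-171437610, plus strand: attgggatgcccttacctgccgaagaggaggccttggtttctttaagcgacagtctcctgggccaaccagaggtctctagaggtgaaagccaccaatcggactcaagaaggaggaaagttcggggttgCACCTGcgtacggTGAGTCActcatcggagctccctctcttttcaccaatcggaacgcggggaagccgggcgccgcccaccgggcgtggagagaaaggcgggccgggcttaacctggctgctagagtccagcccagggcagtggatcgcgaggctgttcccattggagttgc
Elf5, chr2:103423818-103424117, plus strand: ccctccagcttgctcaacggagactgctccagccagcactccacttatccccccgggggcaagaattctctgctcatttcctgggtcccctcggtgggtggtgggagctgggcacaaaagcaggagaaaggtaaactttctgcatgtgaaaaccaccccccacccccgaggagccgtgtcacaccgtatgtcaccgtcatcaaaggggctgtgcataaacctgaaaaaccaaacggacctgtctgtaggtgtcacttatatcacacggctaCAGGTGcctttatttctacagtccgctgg
Vim, chr2:13574061-13574360, plus strand: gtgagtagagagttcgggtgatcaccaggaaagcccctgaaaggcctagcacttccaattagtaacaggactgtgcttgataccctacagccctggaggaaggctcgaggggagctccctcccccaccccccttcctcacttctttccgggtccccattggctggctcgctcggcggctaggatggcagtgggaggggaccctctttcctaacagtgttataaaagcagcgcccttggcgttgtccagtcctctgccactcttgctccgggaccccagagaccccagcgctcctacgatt

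CAGGTG was present in 15 of the 20 open starts of epithelial adhesion and keratin genes for which a sequence was given, and in 17.6% of all open starts. It stood in 19.7% of all 21263 starts, and a start that held it was open in 42.5% of cases against 49.0% without it. The 3 starts of the same list that were not open, 2 of Crb3 and 1 of Tjp3, held it as well. Of the housekeeping starts 0 of 17 held it, of the mesenchymal and matrix starts 1 of 22, and of the pluripotency and germline starts 7 of 15, none of which were open. Epcam, Rab25 and Cldn4 held it at 2 places each, and Krt8, F11r and Elf5 at 1. A match of letters is a description of the sequence and not a binding site.

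A promoter was called open where a peak overlapped the 1 kb on either side of a gene's start, and 10548 of 21887 protein-coding genes had an open promoter, or 48.2%. By a density of at least 10 CPM per kb in both libraries, whether or not a peak was listed, it was 11312 genes, or 51.7%. By the peak call a further 29.3% had peaks only elsewhere, inside the gene or up to 50 kb from it, and 22.5% had none. Of the epithelial adhesion and keratin genes 24 of 30 had an open promoter, of the epithelial transcription and splicing factors 16 of 20, and of the housekeeping genes 17 of 20. The mesenchymal and matrix genes had 5 of 35. Lists of muscle genes and of pluripotency and germline genes had none, with 0 of 16 and 0 of 15. The lists were chosen with earlier results of these data known, and their shares are given without a test.

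**Figure D1:**
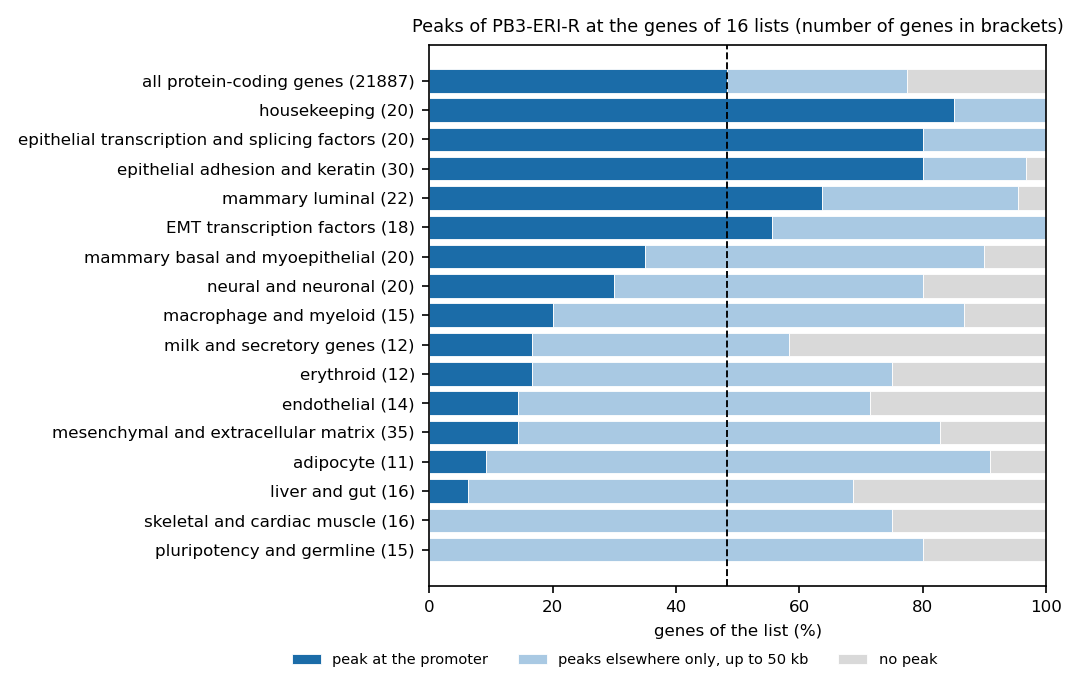
Share of the genes of each list, in percent, with a peak at the promoter (dark), with peaks only elsewhere up to 50 kb (light) and with none (grey). The dashed line marks the 48.2% of all protein-coding genes, and the housekeeping, epithelial, luminal and EMT factor lists lie to its right.

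Among epithelial adhesion genes the densest promoters were those of Llgl2, a cell polarity gene, F11r, a tight junction protein, and Cldn3, a claudin. The Llgl2 promoter held 1699 and 1265 counts, or 127 and 120 CPM per kb. The F11r promoter held 1073 and 915 counts, or 116 and 126 CPM per kb. The Cldn3 promoter held 1149 and 792 counts, or 116 and 102 CPM per kb. All 3 lay above 95% of the open promoters of the line in mean density. Llgl2 lies in a 10 Mb window whose median density was 1.61 times the median window, and Cldn3 in one at 1.297 times. The part of this in their values was not tested.

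Cdh1, which encodes the adhesion protein E-cadherin, had an open promoter with 633 and 484 counts, or 63.7 and 62.1 CPM per kb, at a fold enrichment of 23.8. Further peaks inside Cdh1 held 64.5 and 53.2 CPM per kb at chr8:106610991-106611281, 84.0 and 77.9 at chr8:106619412-106620152, and 62.5 and 53.6 at chr8:106643094-106643563. Epcam, an epithelial surface protein, had 691 and 527 counts, or 44.2 and 43.0 CPM per kb. The libraries gave nearly the same values for both genes.

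The promoters of the keratin genes Krt8, Krt18 and Krt7 differed more between the libraries. Krt8 held 474 and 264 counts, or 101 and 72.1 CPM per kb, and its partner Krt18 held 296 and 155 counts, or 42.0 and 28.1. For Krt7 the values were 63.7 and 41.9 CPM per kb, the only difference over 1.5-fold among the 24 open promoters of the list. Over these 24 the density ran from 26.6 to 127 CPM per kb in replicate 1, with a median of 63.4, and from 28.1 to 126 in replicate 2, with a median of 55.2. The median over all open promoters was 45.3 and 48.3.

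Among the adhesion genes without an open promoter, Krt19, Dsc2, Pkp3, Crb3 and Marveld3 had peaks elsewhere. Pkp3, a desmosome protein, had a region at a gene end with 128 and 110 counts, or 38.2 and 41.8 CPM per kb, without a listed peak. A density near the median of the line can thus go without a peak, and a missing peak is not the same as a closed start.

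Among the factors that keep the epithelial state, the splicing factor Esrp2 held 561 and 379 promoter counts, or 119 and 103 CPM per kb. The transcription factor Grhl2 held 827 and 647 counts, or 93.7 and 93.5, and Esrp1 held 534 and 473, or 82.6 and 93.3. These 3 promoters lay above 90% of the open promoters of the line.

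Lower in the same list, Foxa1, a pioneer factor of luminal cells, held 59.1 and 58.5 CPM per kb, and Ehf, an ETS factor of epithelia, 52.1 and 47.6. Elf5, the ETS factor of luminal progenitors, was open at the start printed above, with 165 and 97 counts, or 51.2 and 38.4 CPM per kb. No peak lay at its other start, at chr2:103411848-103412147. The densest region near Elf5 was upstream, at chr2:103389966-103391023, with 1878 and 1114 counts, or 132 and 100 CPM per kb. Grhl3, Spdef, Tfap2a and Tfap2c had peaks elsewhere only, and no member of the list was without one.

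Of the 18 EMT transcription factors 10 had an open promoter, or 55.6%, which is near the 48.2% of all protein-coding genes. The other 8 had peaks elsewhere. Among EMT factors whose start and strand the reference gives, 4 of 10 were open, against 49.3% of all such genes. This subset was chosen after seeing the data. Sox9 was the densest, with 1103 and 923 counts, or 145 and 155 CPM per kb, in the window at 1.61 times the median. Snai1, the repressor of Cdh1, held 773 and 588 counts, or 91.4 and 88.7 CPM per kb, and Snai3 held 267 and 229, or 70.3 and 76.9. Snai2 held 564 and 386 counts, or 60.3 and 52.6 CPM per kb. These SNAI promoters were above the median of open promoters in both libraries.

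The ZEB and TWIST genes stood lower in density. Zeb2 had a peak at its start with a fold enrichment of 18.9, but its region held 275 and 224 counts, or 15.5 and 16.2 CPM per kb, among the lowest 1% of open promoters. Zeb1 had no peak at either end, and the region there held 97 and 99 counts, or 9.15 and 11.9 CPM per kb. Inside Zeb1 a single peak held 212 and 184 counts, or 30.8 and 34.1 CPM per kb. The region at the start of Twist1 had no listed peak. It held 655 and 501 counts, more than the Snai2 promoter, but a lower density of 28.3 and 27.6 CPM per kb. Twist2 with 7.06 and 7.67 CPM per kb, Foxc2 with 6.81 and 10.8 and Prrx1 with 0.45 and 1.15 were lower still.

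**Figure D2:**
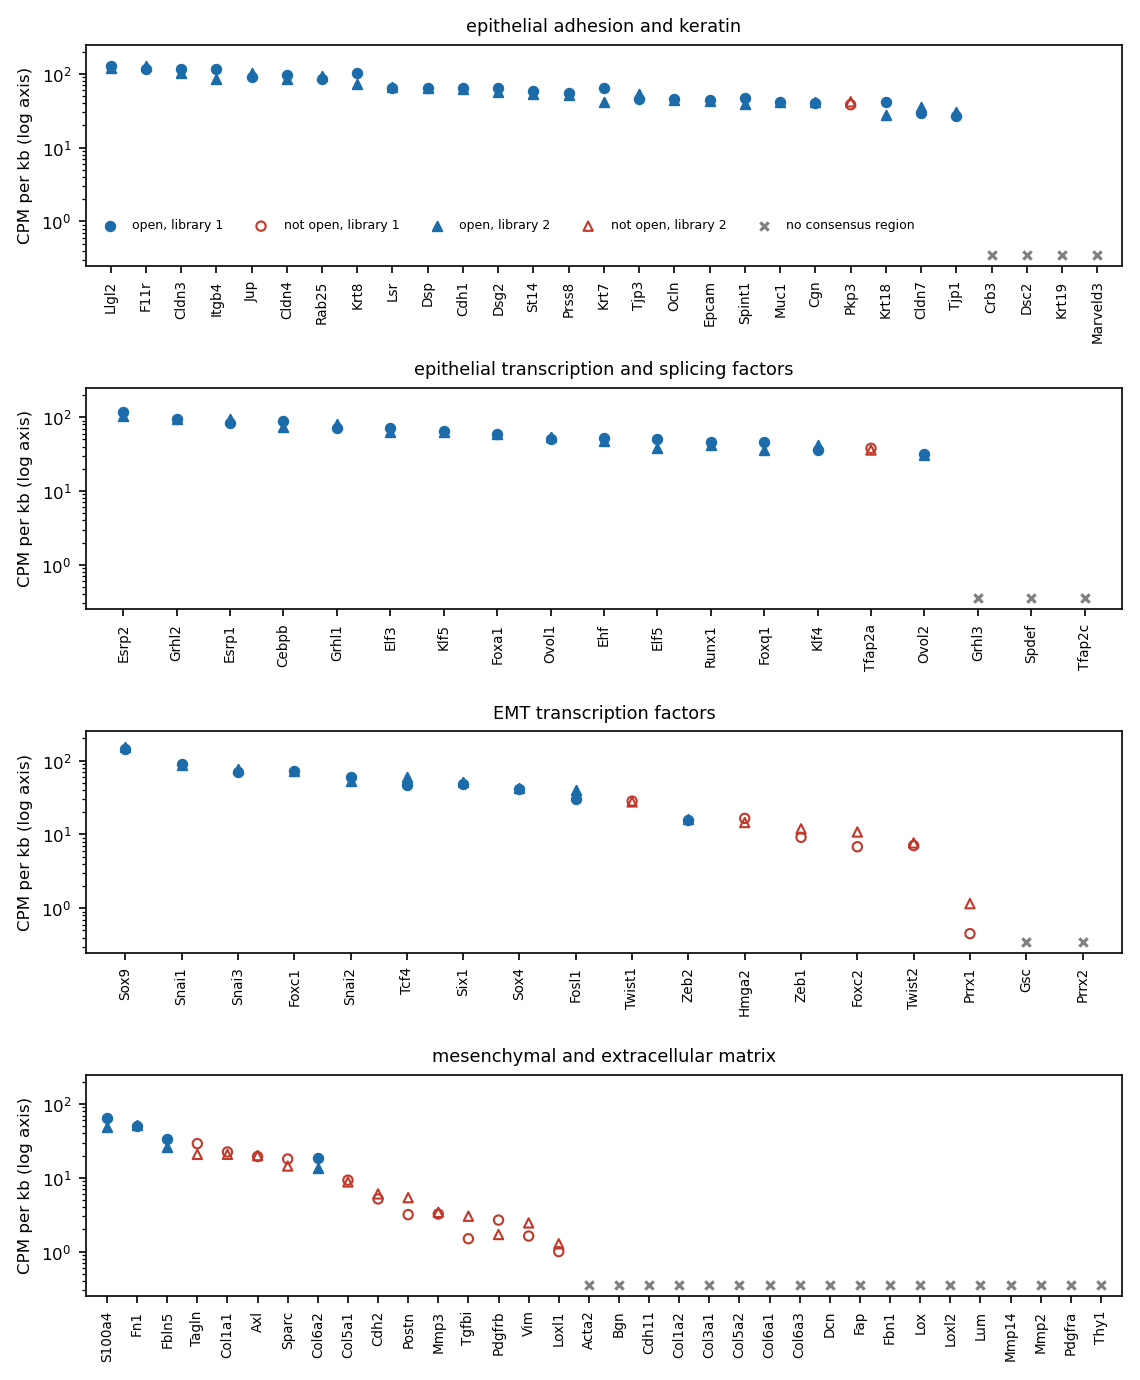
Density at the promoter of genes of 4 lists in CPM per kb on a log axis, for replicate 1 (circles) and replicate 2 (triangles), with open promoters filled and promoters without a peak hollow. Grey crosses are genes with no consensus region at the start, placed at the foot of the axis and without a value. Most epithelial genes lie above 30 CPM per kb, and most mesenchymal genes are hollow or have no region.

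The mesenchymal and matrix list had open promoters at S100a4, Fn1, Fbln5 and Col6a2 among its 5. S100a4, a calcium-binding protein of motile cells, held 620 and 367 counts, or 65.5 and 49.5 CPM per kb. Fn1, which encodes fibronectin, held 920 and 747, or 49.97 and 51.7. Col6a2, a collagen chain, was near the bottom of all open promoters with 96 and 54 counts, or 18.8 and 13.5 CPM per kb. Of the 30 members without an open promoter 18 had no consensus region at the start at all, and the other 12 held 1.00 to 29.1 CPM per kb in replicate 1 and 1.28 to 20.8 in replicate 2.

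Vim, which encodes the filament protein vimentin, had no peak at the start and a peak inside the gene. The region over the start, at chr2:13573370-13574881, held 33 and 39 counts, or 1.63 and 2.45 CPM per kb. A peak 1.63 kb away, at chr2:13575941-13576414, held 753 and 617 counts, or 118 and 124 CPM per kb. Cdh2, which encodes N-cadherin, had no peak at either end, with 72 and 66 counts, or 5.18 and 6.05 CPM per kb, but had a peak deep inside with 768 and 515 counts, or 96.2 and 82.3 CPM per kb. Cdh11, Col1a2, Col3a1, Lox, Lum and Mmp3 had no peak in the gene or within 50 kb, and the region at the start of Mmp3 held 35 and 29 counts.

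The receptor genes behind the label were checked in the same way. Pgr, the progesterone receptor gene, had no peak in it or within 50 kb. Esr1, the oestrogen receptor gene, had none at its starts, where a region held 127 and 98 counts, or 15.2 and 14.9 CPM per kb, and had 1 peak inside, with 402 and 287 counts, or 35.7 and 32.5 CPM per kb. Erbb2, the Her2 gene, had an open promoter with 359 and 282 counts, or 36.7 and 36.8 CPM per kb, above 29.9% of open promoters. An open promoter is not a level of RNA or protein, and neither was measured here.

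Of the mammary luminal genes 14 of 22 had an open promoter. Erbb3, a partner of Her2, held 1633 and 1172 counts, or 149 and 137 CPM per kb, in a region it shares with Pa2g4. Gata3, the factor that specifies luminal cells, held 561 and 415 counts, or 108 and 102 CPM per kb. Krt8, given above, was the third. Prlr, the prolactin receptor gene, was open at 1 of its 3 listed starts, with 60.5 and 58.4 CPM per kb. Lcn2, which encodes the iron carrier lipocalin, differed most between the libraries, with 61.5 and 30.9 CPM per kb.

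Of the basal and myoepithelial genes 7 of 20 had an open promoter. Krt14 held 726 and 562 counts, or 92.8 and 91.6 CPM per kb, at a region 0.40 kb from the only start that the reference table lists. That start lies inside the gene. No peak lay within 1 kb of the outer gene end at chr11:100207510, so the call of Krt14 as open rests on the internal start. Egfr held 62.8 and 50.7 CPM per kb, and Itgb1, an integrin chain, held 58.9 and 52.4. Krt5 had no region at its start and its nearest peak 9.02 kb away, with 318 and 193 counts, or 40.6 and 31.5 CPM per kb. Trp63, the factor of basal epithelia, had no peak at either end but 5 inside the gene, with up to 89.1 and 64.2 CPM per kb. Myl9 and Vcam1 had no peak in the gene or within 50 kb.

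Of the milk and secretory genes 2 of 12 had an open promoter, 5 had peaks elsewhere only and 5 had none. The open ones were Xdh with 97.3 and 84.5 CPM per kb and Muc15 with 32.8 and 32.1. Csn1s1 and Csn2, which encode caseins, had no peak within 50 kb. The lists of other tissues gave 3 of 15 for macrophage and myeloid genes, 2 of 14 for endothelial, 1 of 11 for adipocyte, 6 of 20 for neural, 1 of 16 for liver and gut and 2 of 12 for erythroid genes. Each of these shares is below that of all genes, and the cells at hand were not tested for other cell types in any other way.

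The open members of these lists were few and not all weak. Cebpa, a factor of myeloid cells and also of epithelia, held 75.2 and 63.5 CPM per kb, Spi1, which specifies myeloid cells, 40.6 and 51.5, and Cd14, a receptor of macrophages, 32.8 and 27.5. Among endothelial genes Flt1, a receptor for vascular growth factor, held 2206 and 1449 counts, or 111 and 92.7 CPM per kb, in the window at 1.95 times the median, and Erg held 27.7 and 21.7. Pparg, the factor of fat cells, held 32.1 and 23.9. Among neural genes Map2, a microtubule-associated protein, held 1142 and 908 counts, or 102 and 104 CPM per kb, Sox11 held 59.1 and 44.5, and Ncam1 27.9 and 34.2. Foxa3, a liver factor, shares its region of 84.0 and 98.9 CPM per kb with Sympk, so its promoter cannot be told apart from that of its neighbour. Klf1, a factor of red cells, held 48.8 and 50.8.

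Genes with no peak in or within 50 kb included Lyz2 and Mrc1 of macrophages, Cdh5 and Kdr of endothelium, Lpl of fat cells, Neurod1 of neurons, Myf5 and Myf6 of muscle, Afp and Cyp7a1 of liver, Hbb-bs and Hbb-bt of red cells, and Esrrb and Prdm14 of early embryos. Among housekeeping genes Gapdh held 731 and 452 counts, or 99.8 and 78.7 CPM per kb, Rpl13a 99.1 and 113, and Pgk1 89.5 and 100.4. Actb and Ywhaz were among the 3 housekeeping genes without a called promoter, and neither has a start with strand in the reference table, so either gene end was used. A peak inside Actb, 1.10 kb from the nearer gene end, held 2682 and 2148 counts, or 165 and 169 CPM per kb, in the window at 1.95 times the median.

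Of all peaks 35.8% lay at promoters (95% exact binomial interval 35.3 to 36.4, counting error only), 29.7% inside genes, 22.1% within 50 kb of one and 12.4% beyond. The definition moved the promoter share beyond that interval. It was 33.6% with a window of 0.5 kb, 38.2% with 2 kb and 40.8% for peaks of score 1000 only. Promoter peaks were wider, with a median of 606 bp against 446 bp for the distal peaks, which are all the others, and made up 42.2% of the bases under peaks. Promoter regions with a peak held 41.1% and 43.3% of the counts in all consensus regions, and promoter regions without one a further 1.87% and 1.99%. In regions with a peak the median density was 43.9 and 46.8 CPM per kb at promoters, against 39.2 and 37.8 in distal regions. The ratio was 1.12 in replicate 1 and 1.24 in replicate 2, or 1.18 ± 0.084 (SD, n = 2), and a test with 2 libraries was not made.

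Over all peaks fold enrichment went the other way. Its median was 18.3 at promoter peaks and 19.12 at distal peaks, a ratio of 0.955, and it was highest, at 20.6, in peaks over 50 kb from any gene. Only 1 list of peaks exists for the line, so this difference has no replicate check. By distance from a start, regions over a start had medians of 44.3 and 47.3 CPM per kb and a fold enrichment of 19.3. Regions up to 1 kb away, also counted as promoters, had 41.6 and 44.2 CPM per kb at a fold enrichment of 13.2. Regions 1 to 5 kb away had 47.8 and 46.7 CPM per kb at a fold enrichment of 13.4, so the order was not even. Regions 10 to 50 kb away had 39.1 and 37.2 CPM per kb at a fold enrichment of 19.3, and regions over 500 kb away had 34.3 and 35.3 at 22.7. Consensus regions without a peak showed a wider gap, with 15.2 and 16.5 CPM per kb at promoters and 4.17 and 5.22 elsewhere.

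The 2 rankings picked different regions. Across the 30062 regions the Spearman correlation of density and fold enrichment was -0.14, a description over regions that share the libraries. Of the 100 densest regions and the 100 of highest fold enrichment 2 were shared, while the 100 densest of replicate 1 and of replicate 2 shared 72. Promoters made up 46 of the 100 densest regions and 23 of the 100 strongest peaks. In 10 equal classes by density the share of promoters was 43.3% in the densest and 18.9% in the least dense, and in 10 classes by fold enrichment it stayed between 31.5% and 38.4%.

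**Figure D3:**
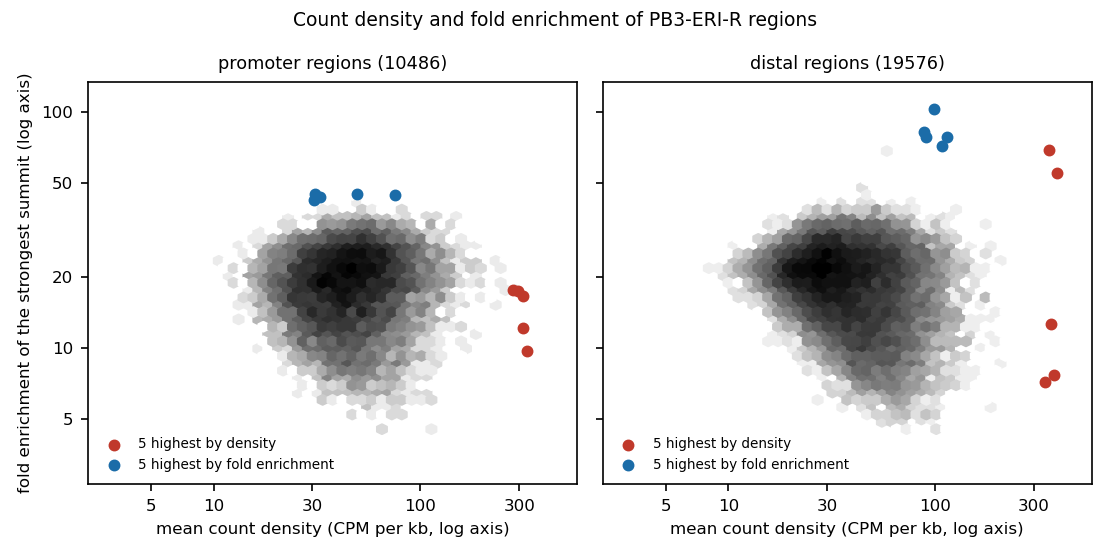
Mean count density of the 2 libraries (CPM per kb, log axis) against fold enrichment (log axis) for 10486 promoter and 19576 distal regions with a peak, darker where more regions fall. Red points are the 5 densest and blue points the 5 of highest fold enrichment in each class, and the pairs of groups lie apart.

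The densest region, at chr13:9011653-9011892, lay 15.5 kb from Gtpbp4, which acts in ribosome assembly. It held 1304 and 943 counts over 240 bp, or 405 and 373 CPM per kb, and was also 12th by fold enrichment, at 54.8. Ranks 2, 3 and 5 were neighbours inside Myo3a, a myosin gene of hair cells, between chr2:22587530 and 22590216. Together these 3 regions held 8850 and 9952 counts in 2.69 kb, or 0.0659% and 0.0946% of the counts, at fold enrichments of 7.19 to 12.6. Each was denser in replicate 2, by 0.48 to 0.55 on the log2 scale. The region at rank 4, at chr2:69355505-69355697, lay 12.9 kb from Abcb11, the bile salt exporter gene, and held 706 and 883 counts, or 273 and 435 CPM per kb.

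The other regions of the top 10 were on chromosome 5. They lay inside and at the promoter of Micall2, which acts at tight junctions, inside Tsc22d4, and at the promoters of Mxd4, a partner of Max, and Ppp1r35. The promoter of Micall2, at chr5:139736240-139736574, held 1448 and 1162 counts, or 322 and 330 CPM per kb. The region inside Micall2 held 395 and 275 CPM per kb, and that inside Tsc22d4 315 and 348. Mxd4 held 3656 and 2723 counts, or 321 and 305 CPM per kb, and Ppp1r35 held 309 and 316. The next promoters by density, Lrch4 with 298 and 296 CPM per kb and A430033K04Rik with 293 and 266, were on the same chromosome.

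By fold enrichment the top 10 peaks were all distal and 100 to 415 bp wide. The first, inside Il1rapl1, a synapse gene, at chrX:87238324-87238453, reached 102.8 with 180 and 129 counts in its region, or 103 and 94.3 CPM per kb. Timd2 followed at 82.1, then regions near Eea1 at 78.1, Fbln1 at 77.9 and Galc at 71.8, the last 1140 kb from that gene. Peaks near Btbd35f27, Abcb11, Gm52481, Ifngr2 and Cd209a reached 64.3 to 69.6. Of these 10 regions 5 differed between the libraries by more than 1.5-fold, all with more in replicate 2, whereas about 95% of all regions with a peak lay within 1.5-fold. The region nearest to Galc was the most uneven, with 390 and 633 counts, or 70.0 and 145 CPM per kb.

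Promoter peaks reached no more than 44.7 in fold enrichment. The 5 highest were those of Cdh16, a kidney cadherin, Zfp420, a zinc finger gene, Depdc1a, a gene of dividing cells, Mbip and Trim12c, at 42.2 to 44.7. Their densities were ordinary, from 26.7 to 74.5 CPM per kb in replicate 1 and from 29.5 to 75.7 in replicate 2. The promoter of Depdc1a was the densest of them, with 526 and 419 counts.

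Density was uneven along the chromosomes. Regions on chromosome 5 had a median of 51.4 and 50.2 CPM per kb, and the other chromosomes with more than 3 regions ran from 34.6 to 43.3 in replicate 1 and from 35.8 to 43.8 in replicate 2. Of 262 windows of 10 Mb 10 had a median of at least 1.3 times the median window, 6 of them on chromosome 5, and 7 reached it in both libraries. The highest was 140 to 150 Mb of chromosome 5, at 2.00 and 1.99 times the median window, with 322 regions. The windows at 20 to 40 Mb of chromosome 5 reached 1.59 to 1.67 and that at 110 to 120 Mb of chromosome 11 reached 1.66 and 1.61.

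**Figure D4:**
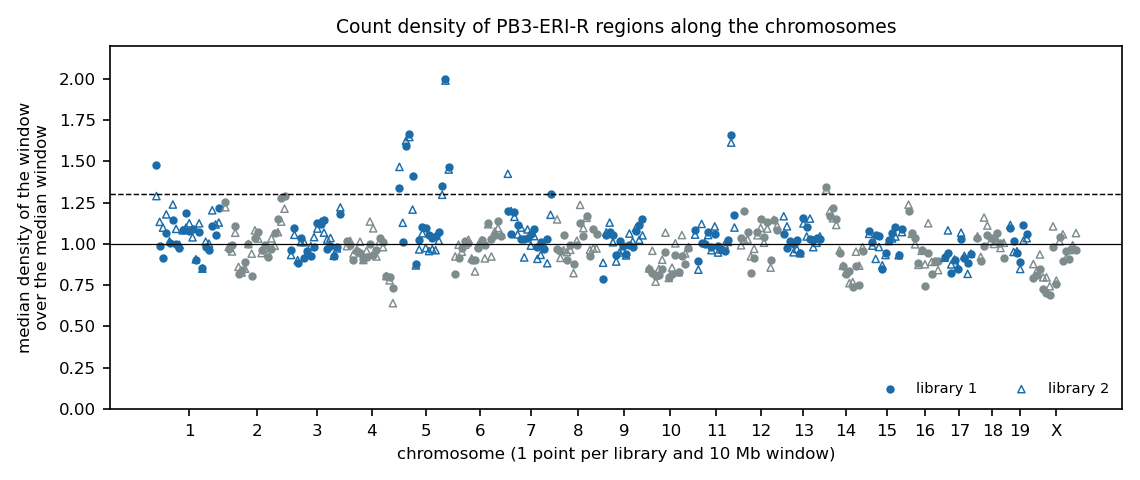
Median density of the regions in each 10 Mb window divided by that of the median window, for replicate 1 (circles) and replicate 2 (triangles), along the chromosomes. The dashed line is 1.3 times the median window, and 7 windows stand above it in both libraries, on chromosomes 5, 11 and 14.

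Fold enrichment, which MACS2 sets against a background expected for the peak, was not raised there. Its median over windows was 17.2 over the 10 high windows and 19.4 over the others. The high windows held 1566 of the regions with a peak and 62 of the 100 densest, and 70 of the 100 densest were on chromosome 5 against 5 of the 100 strongest peaks. More copies of a stretch of the genome and more open chromatin per copy cannot be told apart from these counts. Inside the high windows the ratio of promoter to distal density was 1.44 and 1.51, and outside them it was 1.12 and 1.24, as over all regions. Outside them 49 of the 100 densest regions were at promoters. That set still holds the window at 130 to 140 Mb of chromosome 5, which at 1.297 times the median window fell just short of the limit. The promoters of Micall2, Ppp1r35 and Lrch4, among the 10 densest regions of that set, lie in it.

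Gene starts that were open were rich in CpG. Of 21263 starts with a sequence 10138 were open, or 47.7%. The open starts had a median GC content of 62.0% and a median ratio of observed to expected CpG of 0.796, against 50.3% and 0.257 in the others. Of starts with a ratio under 0.4 884 of 8372 were open, or 10.6%, and of those with 0.7 or more 81.3%. The median density of the open starts was 43.0 CPM per kb in the first set and 47.2 in the second.

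**Figure D5:**
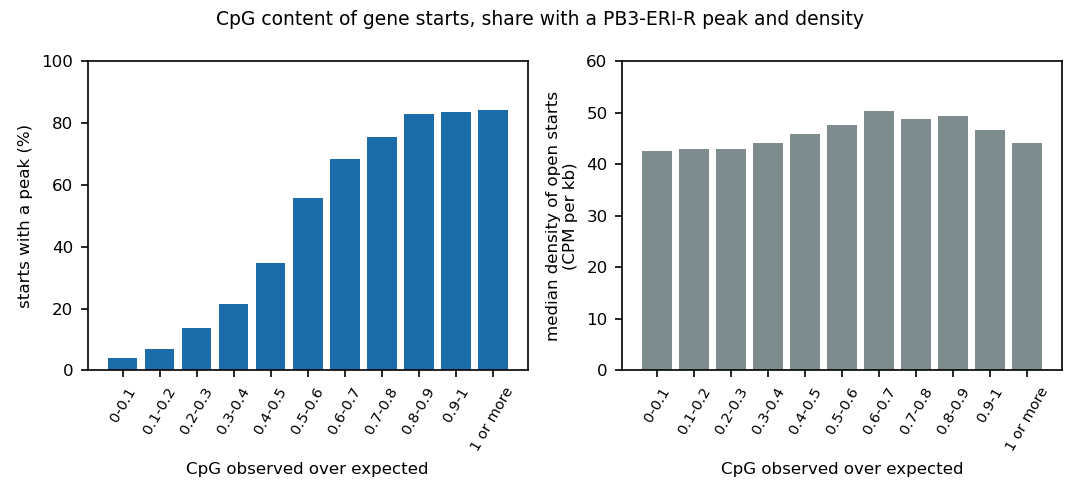
Left, the share of gene starts with a peak, in percent, by the ratio of observed to expected CpG in the 300 bases at the start. Right, the median density of the open starts in CPM per kb. The share runs from 3.97% in the lowest class to 84.1% in the highest, and the median density lies between 42.5 and 50.4, highest in the class from 0.6 to 0.7 and 44.1 in the highest class.

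The lists were counted in the same way. Of the epithelial adhesion and keratin starts with a ratio under 0.4 7 of 8 were open, among them Krt8, Cldn3, Cldn4, Rab25 and Muc1, against the 10.6% of all such starts. Of such starts of mesenchymal and matrix genes 2 of 13 were open, S100a4 and 1 of Col6a2. Luminal genes had 3 of 8 open, Krt8 again, Lcn2 and 1 of Stat5a, and basal and myoepithelial genes 2 of 6, Krt14 and Mme. In the epithelial factor list 0 of 4 were open, and in the muscle, liver and gut, milk and pluripotency lists 0 of 11, 0 of 9, 0 of 8 and 0 of 8. Apart from the epithelial adhesion, luminal and basal lists, these counts were near the share of all such starts and say nothing particular of the lists. The CpG-poor Stat5a start had the same region density, 42.6 CPM per kb, as a Stat5a start with a ratio of 0.80. That of Mme shared 51.8 CPM per kb with Mme starts at 0.80 and 0.77, and Krt14 was open by its internal start. The luminal and basal counts thus say little of CpG-poor starts. Of starts with a ratio of 0.7 or more, EMT factors had 2 of 6 open, Snai1 and Foxc1, while Twist1, Twist2, Gsc and Prrx2 were not. These are small counts of starts, several of which belong to the same gene.

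Motifs at the starts were searched on both strands of the same 300 bases. A start with the ETS motif CCGGAAG was open in 83.7% of cases against 43.0% without, with the YY1 motif ATGGCGG in 81.1% against 45.8%, and with the NRF1 motif GCGCATGC in 80.1% against 46.5%. For the GC box GGGCGG it was 70.8% against 27.8%. Starts with the TATA box TATAAA were open in 22.8% of cases against 51.3%, and with the GATA motif AGATAA in 25.3% against 50.1%. ETS motifs stood in 11.6% of all starts, GC boxes in 46.2% and TATA boxes in 12.6%. Among open starts the CCAAT box differed most with density, at 54.1% in the densest of 4 equal classes and 30.4% in the least dense. The CpG content of the motifs and of the starts moves with these shares, and its part was not tested.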

How the data were processed

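The libraries and the peak list of PB3-ERI-R were used, and 6 count columns of other lines were not. Per the submitters' processing notes, the tools named are Bowtie2 2.2.6, MACS2 2.1.1, featureCounts, cutadapt 1.9.1, deepTools, Picard and bcl2fastq 2.20.0.422, and mm10 and GRCm38 are the builds. No settings of these tools were at hand. The deposited table holds unnormalised whole-number counts for every consensus region, as the authors made them. In the deposited peak list the authors gave a score, the fold enrichment at a summit, its −log10 q and the summit offset, 1 line per summit. Its name refers to IDR, a filter on reproducibility between replicates.

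The 88879 lines were merged to 30778 peaks by their coordinates. A region took the peaks that overlapped it by at least 1 bp. Density is counts per kb scaled to the total of a library over all consensus regions. This gave a floor of 3 counts or 0.224 and 0.285 CPM. Starts and strands came from the RefSeq promoter table for 17492 genes. For the other 4395 genes either gene end was taken as the start, which can miss a promoter or call a gene's far end. No test was run: differences stand beside that between the libraries. Members and lists were chosen with earlier results of these data known. Named genes were the 10 highest regions and peaks, the 5 highest promoter and distal ones, per list the 3 densest open members and the first 2 in the alphabet without a peak, the 5 genes with most peaks and a set of epithelial, mammary and EMT genes. Some genes that this rule names are not reported here. Other genes named were chosen after their values were seen. Alternatives used edgeR 4.0.16 (TMM) and DESeq2 1.42.0 size factors in R 4.3.3, and the rest Python 3.11.15, pandas 2.3.3, NumPy 2.4.6, SciPy 1.17.1 and matplotlib 3.10.9. The scripts passed 6 of 6 checks on simulated data.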

Additional observations from a re-analysis of the deposited data

How the results depend on the processing

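Of 144 values under another setting 124 stayed close to those reported and 20 moved. A change of direction could be scored only for the promoter to distal ratios of density and fold enrichment, and none was found. The order of fold enrichment inside the high windows, which was reversed, was not among these values. Size factors cannot move a density ratio taken within a library. The limit for that ratio was the spread between the libraries, so leaving 1 out could not count as moved. With a promoter window of 0.5 kb the open promoters were 1 of 14 endothelial, 0 of 16 liver and gut and 1 of 12 erythroid genes, and with 2 kb they were 3 of 11 adipocyte and 2 of 16 liver and gut genes. With peaks of score 1000 only they were 3 mesenchymal and matrix, 1 milk, 1 endothelial, 0 adipocyte and 1 erythroid. With at least 50% of the peak in the window 1 erythroid gene was open. By a region of at least 10 CPM per kb in both libraries 9 of 35 mesenchymal and matrix genes and 1 of 16 muscle genes were open. Among genes with a given start and strand, an alternative chosen after seeing the data, 0 of 8 milk, 1 of 10 myeloid, 2 of 8 endothelial and 1 of 10 erythroid genes were open. Listed genes with no peak numbered 91 of 287 in place of 41 when peaks were sought within 10 kb. The ratio of promoter to distal density was 1.84 for counts not divided by width and 2.34 over all consensus regions, and the cause was not tested. With 1 library left out this ratio was 1.12 to 1.24, promoters among the 100 densest regions 37 to 53, genes open at 10 CPM per kb 11334 to 11379, the highest window 1.99 to 2.00 times the median, and the share of high windows on chromosome 5 62.5% to 70%. No paired analysis was possible because only 1 line was described and no groups were compared. A missing peak does not show a closed site: of 11339 genes without an open promoter 770 had at least 10 CPM per kb at the start in both libraries.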

Other observations

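Among the genes with most peaks assigned to them were Stard13 with 27, Arhgap26 and Rad51b with 25 each, and Zmiz1 with 24. These genes are long, from 209 to 775 kb. Stard13 was open at its start with 1423 and 1119 counts, or 127 and 127 CPM per kb, and lies in a window at 1.44 times the median. Zmiz1, a coactivator of nuclear receptors, held 90.6 and 81.2 CPM per kb at its start. Arhgap26 held 48.9 and 53.2 CPM per kb in a region shared with Spry4, and Rad51b, a gene of DNA repair, 46.7 and 66.8 in a region shared with Zfyve26.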
